A study of Homo sapiens with 48 samples.

Results

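The genes described here are the 237 genes with a symbol of ZNF and a number whose first exon lies on human chromosome 19. The rule used name and position alone, over 19923 counted gene names, but was chosen with earlier results of these data known. These members were compared with 235 ZNF genes on other chromosomes and 1234 other genes of chromosome 19. Zinc finger genes of this type code for DNA-binding proteins in which many C2H2 fingers, each held by a zinc ion, read a stretch of DNA. Most on chromosome 19 also carry a KRAB domain, which recruits the corepressor TRIM28 and, through it, the histone methyltransferase SETDB1 and heterochromatin proteins, chiefly at retrotransposons. They lie in clusters that grew by gene duplication, and their mRNAs are widely known as short-lived.

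The libraries were poly(A) RNA-seq of Kelly and NGP, both MYCN-amplified human neuroblastoma lines with a wild-type genotype per the labels. Cells of each line had been kept for 3 or 6 days in 8 µM STM2457, which inhibits METTL3, the enzyme that writes m6A on mRNA, or in DMSO, the solvent. All were then sampled after 0, 3 or 6 h of 10 µg/ml actinomycin D, which stops transcription, so that the level left over time follows mRNA loss. This gave 48 libraries in 24 groups of 2. Nothing in the labels tells whether the 2 libraries of a group came from separate cultures, so p-values measure only the spread between these libraries, which may be technical.

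The libraries held 11139550 to 21942238 fragments in genes, of which the members took 22426 to 94955. The ERCC spike-ins took 0.265 to 0.671%, and mitochondrial genes 3.22 to 7.38%. All 10 adrenergic neuroblastoma markers had a median of at least 1 CPM in Kelly and 9 of 10 in NGP, where TH, the dopamine-pathway enzyme tyrosine hydroxylase, was lower. Summed over its genes, the adrenergic list reached 3098 to 10361 CPM in Kelly and 1290 to 11981 in NGP. The blood list summed to at most 3.06 CPM, the epithelial list to at most 6.18 and the endothelial list to at most 9.59. The fibroblast list reached 3.79 to 50.2 CPM in Kelly and 46.7 to 193 in NGP. This sum came mostly from COL1A1, with medians of 13.6 CPM in Kelly and 74.8 in NGP. DCN had a median of 0 in both lines, COL1A2 0.223 and 0.0251, and LUM 0 and 2.65. The part of this list in the results was not tested.

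Of the 236 members matched to a canonical GENCODE 44 transcript, 198 had a KRAB-like stretch in the translated protein and 38 did not, and the median number of C2H2 finger matches was 12 (1 to 39). On chromosome 19 (GRCh38) the members formed 16 runs with gaps of at most 1 Mb between neighbours. The largest run held 55 members, from ZNF628 to ZNF446 (chr19:55476617-58481230). The next held 39, from ZNF175 to ZNF331 (chr19:51571283-53580269), and the third 36, from ZNF101 to ZNF726 (chr19:19668796-23945159). Because duplicated genes share sequence, fragments that match several members may be lost or split. Of the members, 77 share exon bases with another gene of the annotation, 39 of them over more than 10% of their exon length. The 18-base run that the largest number of member transcripts hold shows the likeness.

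common run: tcatactggagagaaacc

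This run lies in the part that codes for the conserved linker between neighbouring fingers. It stood in the sense strand of 95 of 236 member transcripts (40.3%), with a median of 4 copies and up to 22 in 1 transcript, against 64 of 19810 other transcripts (0.323%), 40 of which are among the 234 ZNF transcripts of other chromosomes.

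Promoter sequences are shown for members on which the results below turn: ZNF91 and ZNF264, which had at least 5 CPM in Kelly and under 0.5 CPM in NGP on average, ZNF45, whose decay differed under STM2457, and ZNF614, with the largest relative loss. Each runs 5′ to 3′ from 250 bases before to 50 bases after the gene start in RefSeq (GRCh38.p14), with every CG in capitals. ZNF91 is at chr19:23395422-23395721 on the minus strand, ZNF264 at chr19:57191250-57191549 on the plus strand, ZNF45 at chr19:43935233-43935532 on the minus strand and ZNF614 at chr19:52028330-52028629 on the minus strand.
ZNF91: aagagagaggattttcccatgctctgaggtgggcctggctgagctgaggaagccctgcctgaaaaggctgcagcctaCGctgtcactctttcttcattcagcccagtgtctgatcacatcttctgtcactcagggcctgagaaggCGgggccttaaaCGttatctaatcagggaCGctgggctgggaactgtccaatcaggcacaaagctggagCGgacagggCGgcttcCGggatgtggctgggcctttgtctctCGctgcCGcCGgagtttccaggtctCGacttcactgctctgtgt
ZNF264: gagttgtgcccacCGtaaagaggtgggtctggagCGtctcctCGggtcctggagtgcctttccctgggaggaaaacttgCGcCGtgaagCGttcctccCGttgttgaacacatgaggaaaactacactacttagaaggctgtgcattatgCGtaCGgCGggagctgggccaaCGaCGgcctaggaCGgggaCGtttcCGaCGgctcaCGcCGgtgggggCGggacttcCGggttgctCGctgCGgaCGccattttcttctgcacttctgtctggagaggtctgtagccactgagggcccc
ZNF45: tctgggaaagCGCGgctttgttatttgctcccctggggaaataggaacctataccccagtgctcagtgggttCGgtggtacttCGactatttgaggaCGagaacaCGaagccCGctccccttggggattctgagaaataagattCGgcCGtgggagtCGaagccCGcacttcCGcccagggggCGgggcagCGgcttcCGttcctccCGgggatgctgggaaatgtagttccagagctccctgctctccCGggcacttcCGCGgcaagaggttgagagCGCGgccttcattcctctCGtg
ZNF614: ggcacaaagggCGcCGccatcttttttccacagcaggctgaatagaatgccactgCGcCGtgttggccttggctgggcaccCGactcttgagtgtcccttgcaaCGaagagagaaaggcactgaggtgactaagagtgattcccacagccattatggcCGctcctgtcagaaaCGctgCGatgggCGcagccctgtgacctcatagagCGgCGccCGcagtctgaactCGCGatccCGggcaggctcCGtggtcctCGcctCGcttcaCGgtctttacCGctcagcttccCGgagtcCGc

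CG, which reads the same on both strands and was the only motif searched, is the site of DNA methylation. The windows held 11 CG in ZNF91, 23 in ZNF264, 22 in ZNF45 and 23 in ZNF614. At least 1 CG was present in 96.0% of the 35116 promoters of the table and in all 206 members matched there. The median was 20 CG for these members and 14 over the whole table.

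Before actinomycin D, in DMSO, the members were read at a median of 14.4 CPM in Kelly (235 members tested) and 9.16 in NGP (201 tested). CPM scales a gene's count to a library of fixed size, here after TMM scaling. Per kilobase of exon, ZNF146, a protein of fingers with no KRAB match here, was first in both lines, at 59.3 CPM per kb in Kelly and 42.3 in NGP. ZNF121, also without a KRAB match, was second at 24.6 and 22.8. ZNF460 came next in Kelly (16.1) and ZNF358 in NGP (19.5). Before the division by length, ZNF146 ranged from 211 to 267 CPM over the 4 libraries and ZNF121 from 164 to 195 in Kelly. In NGP they ranged from 166 to 185 and from 162 to 168. The pair stood apart in Kelly and overlapped in NGP on that scale. ZNF146 shares 10.8% of its exon bases with ZNF565.

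A group of members was read in Kelly and hardly at all in NGP. Over all 24 libraries of a line, 14 of 235 members (5.96%) had a mean of at least 5 CPM in Kelly and under 0.5 CPM in NGP, a pattern shown by 1.29% of all 17343 genes tested in both lines together. Among ZNF genes elsewhere it was 4 of 229, and among the other chromosome 19 genes 9 of 1026. The reverse pattern was found for 0 members and 116 of all genes (0.669%), by these limits on the means and not by a test. Levels set between the lines were scaled over all 48 libraries together. In bulk RNA, fewer cells with a transcript and less of it per cell cannot be told apart.

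The 14 were ZNF91, ZNF320, ZNF83, ZNF677, ZNF880, ZNF264, ZNF808, ZNF28, ZNF229, ZNF85, ZNF681, ZNF726, ZNF208 and ZNF525, all named after their values were seen except ZNF91, ZNF264 and ZNF83. Of these, 7 lie in the run from ZNF175 to ZNF331 and 5 in the run from ZNF101 to ZNF726. ZNF91, which represses SVA retrotransposons, was the most abundant, with a mean of 55.1 CPM in Kelly (38.5 to 74.0 over 24 libraries). In NGP it had 24 fragments in all 24 libraries together, 14 of them in 1 library, and none in 17. ZNF229 had a mean of 12.2 CPM in Kelly and 1 fragment in all NGP libraries. ZNF264 had a mean of 19.9 CPM in Kelly and 37 NGP fragments, 27 of them in DMSO replicate 1 at 3 days and 6 h. ZNF83 had 29.9 CPM in Kelly and 23 NGP fragments, 16 of them in STM2457 replicate 1 at 6 days and 0 h. So the few NGP fragments of ZNF264 and ZNF83 sat mostly in single libraries. In those libraries ZNF264 read 1.58 CPM and ZNF83 0.926 CPM. A low level of the other line's genes was also seen among 99 genes with at least 5 CPM in every Kelly library and a median under 0.1 CPM in NGP. Summed, they reached 0.119 to 0.513% of their Kelly level in the NGP libraries, a range that the pick itself holds low. The 49 genes picked the other way round reached 0.114 to 1.89% of their NGP level in the Kelly libraries. The part of such signal in the NGP fragments of the 14 members was not tested.

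**Figure D1:**
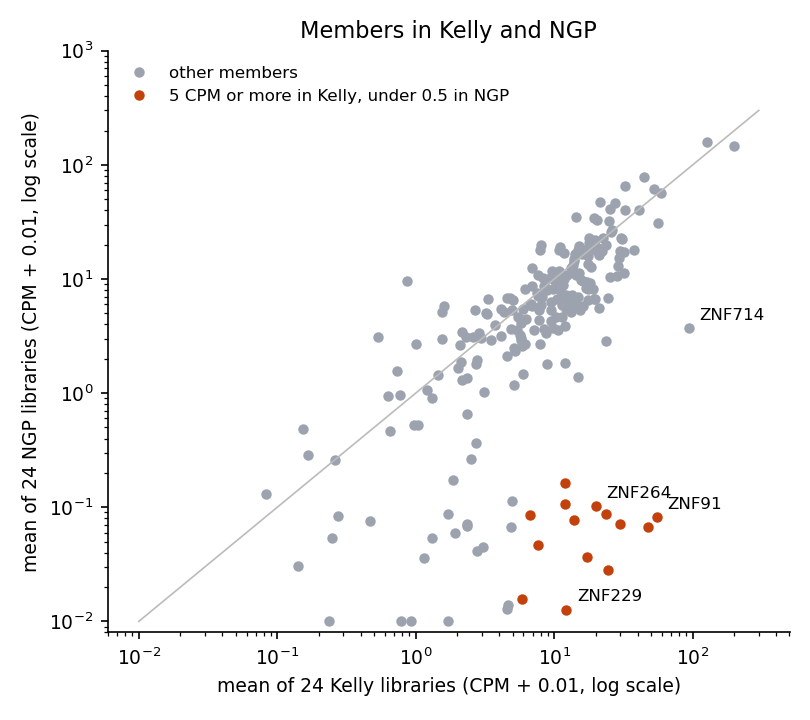
Mean level of 235 members in the 24 Kelly libraries (x axis) and the 24 NGP libraries (y axis), in CPM with 0.01 added, on log axes, with the line of equality in grey. The 14 members in orange had at least 5 CPM in Kelly and under 0.5 CPM in NGP; ZNF91, ZNF264 and ZNF229 are among them, and ZNF714, outside the limits with 93.7 CPM in Kelly and 3.69 in NGP, is labelled too.

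Decay in control cells was asked first: which members were lost faster than the typical gene once transcription stopped. The members as a class took a smaller share of the fragments after actinomycin D in every set. In Kelly at 3 days in DMSO they took 0.458 and 0.446% of the fragments in the libraries at 0 h, 0.224 and 0.231% at 3 h and 0.204 and 0.217% at 6 h. At 6 days the values were 0.492 and 0.505%, then 0.281 and 0.277%, then 0.250 and 0.244%. The 0 h libraries stood above all later ones without overlap in both durations, and most of the drop was in place at 3 h. In NGP at 3 days the shares were 0.314 and 0.316% at 0 h, 0.185 and 0.176% at 3 h and 0.159 and 0.156% at 6 h. At 6 days they were 0.340 and 0.328%, 0.209 and 0.207%, and 0.184 and 0.187%. NGP thus began lower and showed the same order of times.

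**Figure D2:**
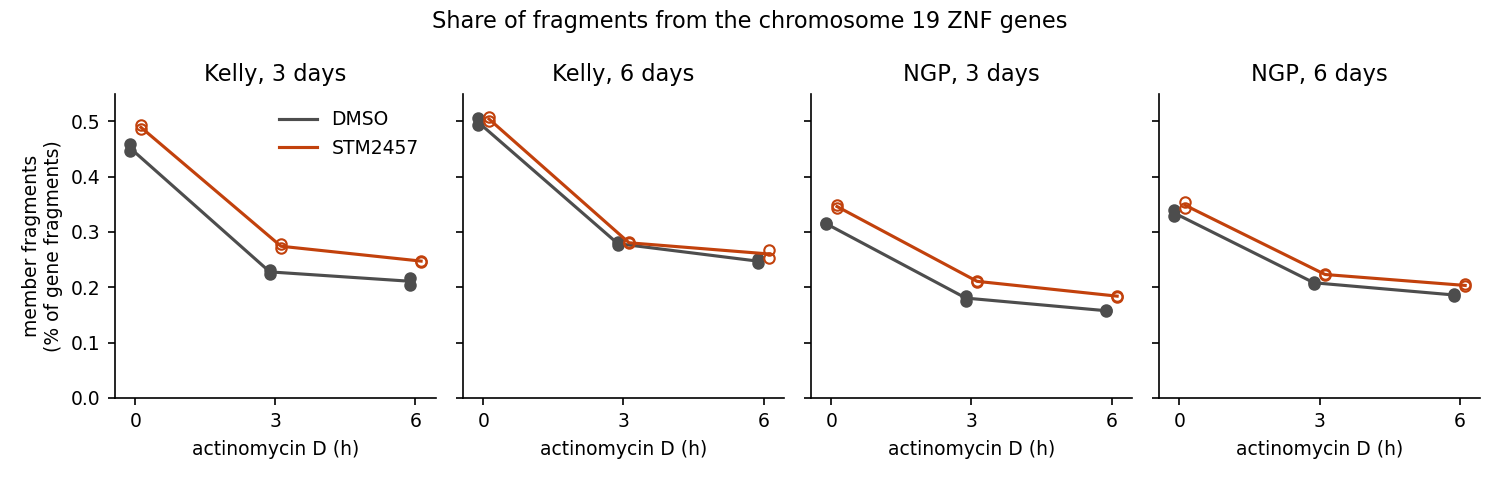
Share of gene fragments taken by the 237 members (y axis, percent) against hours of actinomycin D (x axis), with 1 point per library, a line through the mean of each pair, DMSO filled and STM2457 open. In each panel the 4 libraries at 0 h lie above the 8 at 3 and 6 h, from 0.446 to 0.507% in Kelly and 0.314 to 0.354% in NGP.

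Gene by gene, the 6 h level in DMSO was tested against 0 h by edgeR's quasi-likelihood method, and p-values were adjusted by Benjamini-Hochberg over all genes tested, with a threshold of 0.05. Under TMM the typical gene has a change near 0, so "lower" means a larger loss than the typical gene. In Kelly at 3 days, 113 of 235 members were lower and 0 higher, where 15.6% of all genes were lower and 14.4% higher. The median log2 change of the members was -1.17. At 6 days 93 were lower and 2 higher, with a median of -1.02, against 13.3% and 13.2% of all genes. In NGP at 3 days 80 of 201 were lower and 1 higher (median -0.96, all genes 18.4% and 19%). At 6 days 72 were lower and 2 higher (median -0.78, all genes 18.7% and 18%). For the 0 members higher in Kelly at 3 days, DESeq2 gave 2 and limma-voom 0, and 131 members had an unadjusted p under 0.05 in either direction.

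The members whose counts were too low to test were ZNF729 and ZNF723 in Kelly and 36 in NGP, these included. Among those averaging 5 CPM or more in the line, 98 of 168 members (58.3%) were lower in Kelly at 3 days and 84 of 168 (50%) at 6 days, where all genes at that level had 22.6% and 20%. In NGP 71 of 132 (53.8%) were lower at 3 days and 61 of 132 (46.2%) at 6 days, against 23.6% and 24.1%. Their medians were -1.06, -0.95, -0.88 and -0.73 in this order, and those of all genes at that level 0.03, 0.03, 0.05 and 0.01. ZNF genes on other chromosomes had medians of -0.82 and -0.73 in Kelly and -0.74 and -0.68 in NGP at that level. Of them 57.1 and 47.5% were lower in Kelly and 59.4 and 54.4% in NGP, so their called share was below that of the members in Kelly and above it in NGP. No test compared the 2 ZNF lists. The other genes of chromosome 19 had medians of 0.16, 0.22, 0.15 and 0.15. Among members that share no exon base with another gene, 78 of 158 and 67 of 158 were lower in Kelly and 63 of 131 and 56 of 131 in NGP.

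**Figure D3:**
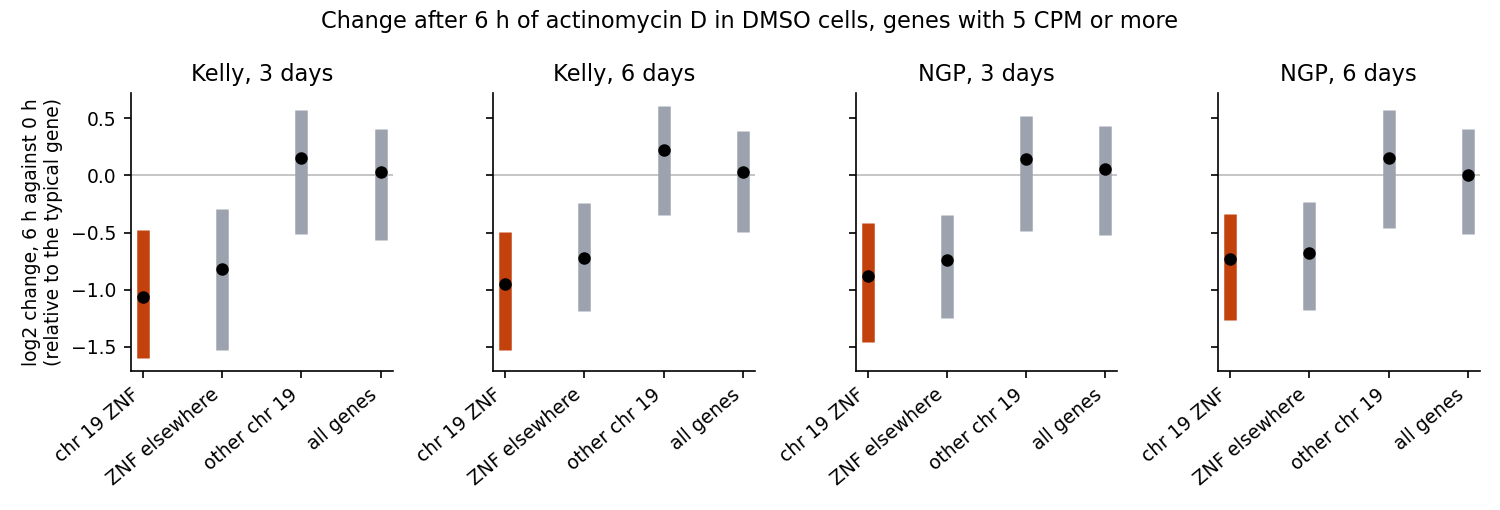
Log2 change over 6 h of actinomycin D in DMSO libraries (y axis) for genes with a mean of 5 CPM or more, with the median as a point and the span between quartiles as a bar, for 4 lists in each line and duration. Both ZNF lists lie below 0 (medians of the members -1.06, -0.95, -0.88 and -0.73), while the other chromosome 19 genes and all genes lie at or above it.

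A scaling factor shifts all genes of a library alike, so the members' loss relative to all genes can move little whatever the scaling. That difference is thus no test of the scaling. In Kelly at 6 days 93 members were lower with TMM and 194 with ERCC scaling. The spike-in share of the DMSO libraries was 0.283 to 0.382% at 0 h and 0.410 to 0.671% at 6 h. Scaled to the ERCC spike-ins, all genes had median changes of -0.34 (3 days) and -1.18 (6 days) in Kelly, and for NGP -0.81 and -1.10. Under that scaling 28.3, 61.9, 54.7 and 67.0% of all genes were lower, and of the genes called 90.1, 99.9, 99.6 and 99.5% were lower, in place of 52.0, 50.1, 49.2 and 50.9%. The members' medians were then -1.60, -2.30, -1.76 and -1.83. Relative to all genes these were -1.26, -1.12, -0.95 and -0.74, and with TMM -1.17, -1.07, -0.95 and -0.74. With library size only, all genes shifted by -0.10, -0.08, -0.26 and -0.24 and the members stood at -1.26, -1.12, -0.95 and -0.74 relative to them. The share of called genes that were lower was 70.5, 69.7, 72.5 and 69.1% with library size only. The labels do not say when the spike-ins were added.

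Among members with at least 5 CPM, the relative loss was larger below 20 CPM than above it. The level was the mean over all libraries of the line, those after actinomycin D included. A larger loss lowers that level itself, so this order is partly built in. From 5 to 20 CPM the members' medians were -1.23 and -1.16 in Kelly (125 members) and -1.02 and -0.83 in NGP (107). At 20 CPM or more they were -0.69 and -0.60 (43 members) and -0.43 and -0.35 (25). All genes gave -0.35, -0.25, -0.33 and -0.32 in the lower bin and 0.14, 0.12, 0.17 and 0.11 in the higher. This order did not run through all levels: in Kelly the members under 1 CPM had medians of -1.07 and -0.85 (18 members), and those from 1 to 5 CPM -1.73 and -1.17 (49). In NGP these were -1.95 and -0.48 (15 members) and -1.05 and -1.07 (54).

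Many of the same members were lower in each set. Of the 201 tested in both lines, 43 (21.4%) were lower in all 4 comparisons and 62 (30.8%) in none. Of 14314 genes tested in both, 8.94% were lower in all 4 and 70.7% in none. The 4 comparisons share no libraries. The change was below 0 in all 4 for 155 of the 201 members and for 4037 of the 14314 genes. It was above 0 in all 4 for 1 member, ZNF428, a count not made over all genes. Across the 123 members with at least 5 CPM in both lines, the changes in 2 sets had a Spearman correlation of 0.65 to 0.75 and a Pearson correlation of 0.62 to 0.77. These are descriptions across genes, which share base composition and duplicated sequence.

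The 6 members with the largest mean relative loss among those 123 were ZNF614, ZNF579, ZNF574, ZNF317, ZNF274 and ZNF627, and each was lower in all 4 comparisons. The levels behind their changes follow, as CPM in replicates 1 and 2. ZNF614, a KRAB zinc finger gene with 10 finger matches (chr19:52012765-52030240), read 26.5 and 25.6 at 0 h, 2.33 and 7 at 3 h and 3.31 and 2.67 at 6 h in Kelly at 3 days. At 6 days it read 20.4 and 24, then 6.17 and 6.11, then 1.88 and 4.99. In NGP at 3 days it went from 16.2 and 11.8 to 3.19 and 3.00 and then 0.810 and 0.989. At 6 days it went from 14 and 12 to 1.43 and 3.87 and then 1.20 and 0.869. No 3 h or 6 h library reached the 0 h level of its set, and by 6 h NGP had about 1 CPM or less left in 3 of 4 libraries. The log2 changes over 6 h were -3.12 ± 0.46 (SE) and -2.69 ± 0.45 in Kelly and -3.96 ± 0.56 and -3.63 ± 0.55 in NGP, with adjusted p of 3.18e-09, 2.03e-07, 9.28e-09 and 4.74e-08 from edgeR.

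ZNF574, with 18 finger matches and no KRAB match (chr19:42068477-42081552), read 37.4 and 36.9 CPM at 0 h, 1.58 and 3.68 at 3 h and 4.10 and 5.27 at 6 h in Kelly at 3 days. The 3-day NGP libraries went from 39.5 and 44.1 to 5.79 and 5.93 and then 3.93 and 4.03. It was near its lowest by 3 h in both, and the pairs did not overlap the 0 h values. The changes over 6 h were -2.98 ± 0.39 and -2.70 ± 0.38 for the Kelly durations, and -3.39 ± 0.34 and -2.36 ± 0.32 for those of NGP. ZNF317, a KRAB zinc finger gene with 13 finger matches (chr19:9140397-9163424), went on falling in Kelly: 57.8 and 49.6 CPM at 0 h, 8.99 and 18.3 at 3 h and 2.30 and 5.41 at 6 h at 3 days. In NGP it went from 38.3 and 38.3 to 13.3 and 12.8 and then 12.7 and 9.66. The late step of ZNF317 was one of those called in Kelly, and its changes over 6 h were -3.79 ± 0.33 and -3.40 ± 0.32 in Kelly but -1.77 ± 0.25 and -1.83 ± 0.25 in NGP.

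ZNF274, a KRAB zinc finger protein known to bring SETDB1 to the 3′ ends of other zinc finger genes, lies at chr19:58183029-58213562. It read 40.7 and 38.3 CPM at 0 h, 10.6 and 15.8 at 3 h and 3.31 and 3.51 at 6 h in Kelly at 3 days, and in NGP 16.5 and 16.8, then 4.44 and 9.01, then 3.01 and 4.03. The order of times held in each, and the 0 h pair stood apart from the rest. Its changes were -3.53 ± 0.36 and -2.46 ± 0.34 in Kelly and -2.25 ± 0.42 and -2.15 ± 0.41 in NGP. ZNF579, with 8 finger matches and no KRAB match, changed by -3.79 and -1.96 in Kelly, and for NGP by -2.60 and -3.36. In Kelly at 6 days, where its call was lost with DESeq2 (-1.93), it went from 18.8 and 22.8 CPM to 3.97 and 6.74. ZNF627, a KRAB zinc finger gene with 11 finger matches, changed by -1.81 and -2.98 in Kelly and by -2.76 and -2.67 in NGP. Its 0 h levels of 16.9 to 27.2 CPM and 6 h levels of 2.83 to 6.33 CPM did not overlap in any set.

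**Figure D4:**
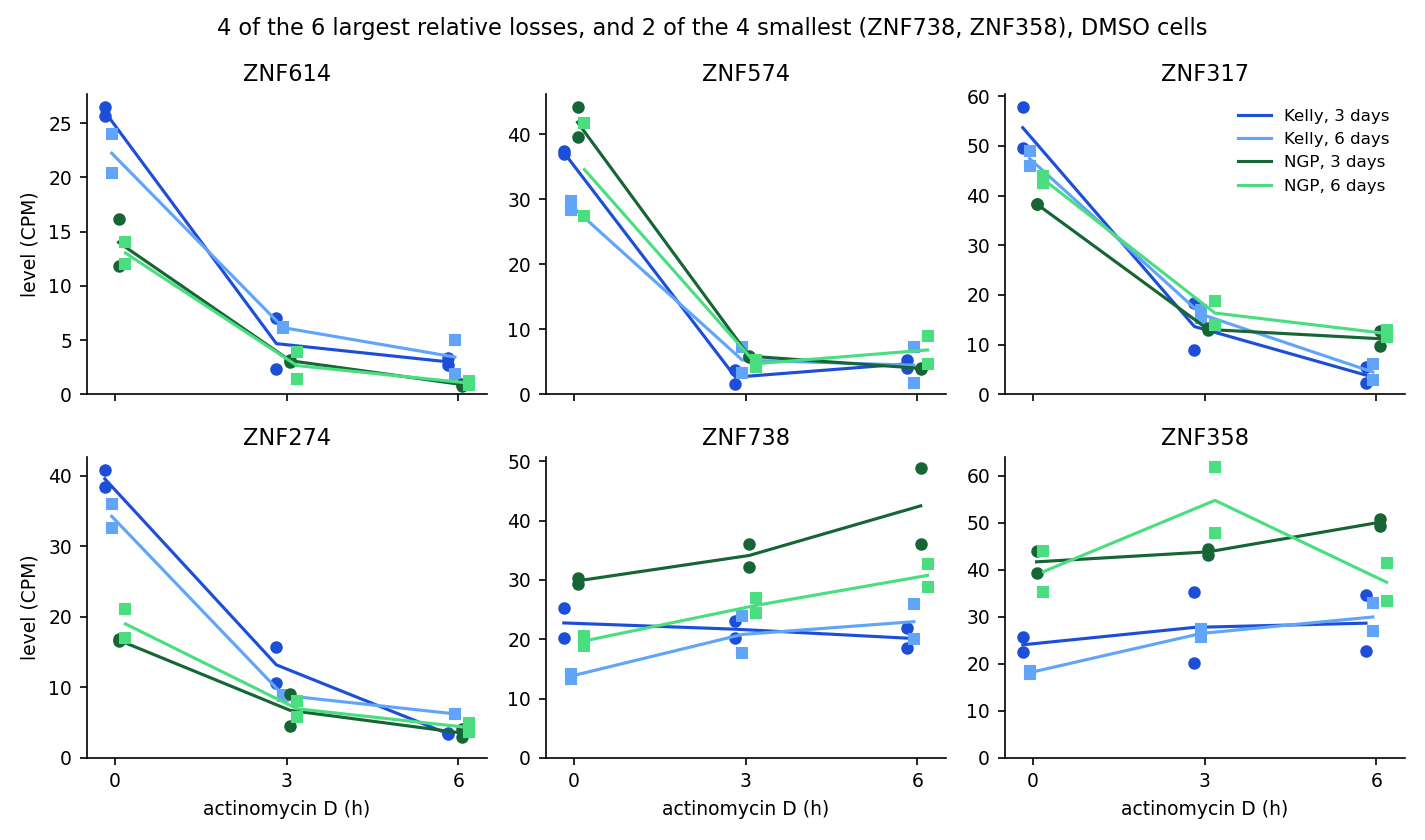
Level in CPM (y axis) against hours of actinomycin D (x axis) in DMSO, with 1 point per library and lines through the means, for Kelly (blue) and NGP (green) at 3 and 6 days. ZNF614, ZNF574, ZNF317 and ZNF274 end well below their 0 h level in all sets, and ZNF317 is lower at 6 h in Kelly (2.30 to 6.07) than in NGP (9.66 to 13.0); ZNF738 and ZNF358 stay near or above it.

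At the other end were ZNF428, ZNF738, ZNF358 and ZNF573, whose mean relative change was above 0. ZNF738 read 20.6 and 18.9 CPM at 0 h and 28.9 and 32.7 at 6 h in NGP at 6 days. At 6 days in Kelly it went from 14.2 and 13.4 to 20 and 25.9. These pairs did not overlap. The changes of 0.64 ± 0.20 and 0.74 ± 0.29 were called, as was that of 0.51 ± 0.20 in NGP at 3 days. ZNF358 was called in Kelly at 6 days alone (0.73 ± 0.25) and ZNF428 in NGP at 6 days alone (0.68 ± 0.28), while ZNF573 was called in none (-0.11 to 0.59). With ERCC scaling all 5 calls were lost and turned negative, at -0.54, -0.28 and -0.42 for ZNF738, -0.55 for ZNF358 and -0.37 for ZNF428. With library size only all 5 fell below the threshold (0.56, 0.26 and 0.44 for ZNF738, 0.54 for ZNF358 and 0.49 for ZNF428). Over all 9 other settings, these included, the calls of ZNF738 were not kept in 4, 3 and 2. That of ZNF358 was not kept in 3 and that of ZNF428 in 6. The calls were also lost without single libraries. For ZNF738 these were DMSO 0 h replicate 1 or 2 or 6 h replicate 2 in Kelly at 6 days (0.79, 0.71 and 0.54), 0 h replicate 1 or 2 or 6 h replicate 1 in NGP at 3 days (0.53, 0.49 and 0.24) and 0 h replicate 2 or 6 h replicate 2 in NGP at 6 days (0.58 and 0.55). ZNF358 lost its call without 0 h replicate 1 or 2 or 6 h replicate 2 (0.70, 0.77 and 0.57), and ZNF428 likewise (0.81, 0.57 and 0.33). Counts of 3 of them are uncertain: ZNF358 shares 20.1% of its exon bases with AC008878.1, ZNF428 32.1% with SRRM5, and ZNF738 28.6% of its 50-base stretches with another transcript.

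ZNF91, named by its role, was also measured in Kelly. It read 50.4 and 46.1 CPM at 0 h, 44.1 and 44.3 at 3 h and 57.9 and 54.8 at 6 h at 3 days, and 75.1 and 72.2, then 70.0 and 65.8, then 65.4 and 60 at 6 days. The 6 h pair lay above the 0 h pair at 3 days and below it at 6 days, and neither change was called (0.22 ± 0.17 and -0.23 ± 0.17, both with adjusted p of 0.347 from edgeR). In Kelly DMSO cells the mean level of ZNF460 at 6 h was 97.8% of that at 0 h at both durations. For ZNF91 it was 117% and 85.1%, for ZNF121 62.2% and 64.6%, and for ZNF507 55.2% and 69.9%. Abundant members thus differed in the share kept. ZNF93, which represses LINE-1 elements, never exceeded 4.02 CPM, and none of its 4 changes was called. ZNF146, the most abundant member, fell in all 4 comparisons by less: 211 and 241 CPM at 0 h against 132 and 134 at 6 h in Kelly at 3 days (-0.76 ± 0.098), -0.76 at 6 days, and -0.68 and -0.91 in NGP. It was named after its values were seen.

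Relative to the typical gene, most of the loss came early. From 0 to 3 h in DMSO 93 and 74 members were lower in Kelly after 3 and 6 days of DMSO, and 62 and 52 in NGP, where 9.37, 7.9, 11.3 and 9.89% of all genes were lower. The medians were -1.05, -0.89, -0.78 and -0.74. From 3 to 6 h only 8, 9, 4 and 10 members were lower, where 4.67, 3.33, 4.55 and 7.8% of all genes were. The medians of this late step were -0.07, -0.11, -0.12 and -0.06, where 0 is the change of the typical gene. In 6-day Kelly DMSO the spike-in share was 0.450 and 0.445% at 3 h and 0.671 and 0.650% at 6 h. In NGP it was 0.336 and 0.333%, then 0.410 and 0.431% at 3 days. At 6 days it was 0.401 and 0.426%, then 0.589 and 0.594%. In 3-day Kelly it went the other way, from 0.506 and 0.528% to 0.452 and 0.449%. Neither step was recomputed with ERCC scaling, so a loss shared by all genes is not seen in these medians. Of the late calls the 4 in NGP at 3 days were ZNF426, ZNF675, ZNF614 and ZNF543, named after their values were seen. The median member with at least 5 CPM kept 49.5 and 51.9% of its 0 h DMSO level at 3 h and 47.7 and 46.1% at 6 h in Kelly at 3 days, relative to the typical gene. In NGP it kept 63.8 and 60.1%, then 54.1 and 53.6%.

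In cells kept in STM2457 the members also fell, with medians smaller in size than in DMSO in every set. From 0 to 6 h 99 and 93 members were lower in Kelly (medians -0.98 and -0.92), and 68 and 58 in NGP (-0.86 and -0.70). Of all genes, 14, 14, 15.9 and 16.4% were lower. The member share of fragments in STM2457 was 0.485 and 0.492% at 0 h, 0.278 and 0.270% at 3 h and 0.248 and 0.246% at 6 h in Kelly at 3 days. For NGP with 6 days of treatment it was 0.354 and 0.343%, 0.222 and 0.224%, and 0.205 and 0.201%. As in DMSO, the 0 h pair lay above the later ones.

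Properties that the selection did not use were set beside the loss. Across members with at least 5 CPM (168 in Kelly, 132 in NGP), Spearman's rho with the 6 h change was -0.05 to -0.10 for the number of finger matches and -0.07 to -0.13 for protein length. It was 0.14 to 0.20 for exon length and 0.22 to 0.32 for the mean level. That level includes the libraries after actinomycin D, so a larger loss lowers it and part of this rho is built in. For the share of exon bases that overlap another gene it was 0.061 and 0.081 in Kelly and 0.25 and 0.18 in NGP. GGACT is a common form of the sequence at which METTL3 methylates. Counted on the sense strand of the canonical transcript, it had a median of 0.714 per kb in 234 members and 0.933 in all 16861 genes matched. It was missing from 19 members and from 1560 of all. Its density had a rho of -0.19, -0.15, -0.27 and -0.23 with the 6 h change. These values describe genes that share sequence, libraries and depth, and no test was made.

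With a KRAB match 56.3, 47.9, 53.2 and 44.1% of members at this level were lower (142 members in Kelly, 111 in NGP), and without one 69.2, 61.5, 57.1 and 57.1% (26 and 21 members). The median changes were -1.04, -0.95, -0.87 and -0.73 with a match and -1.28, -0.93, -0.91 and -0.74 without. Outside Kelly at 3 days these medians were close, and in Kelly at 6 days their order was reversed. Along the chromosome, the run of 55 members had medians of -1.25, -1.12, -1.19 and -0.87 among its 41 members with at least 5 CPM in Kelly and 25 in NGP. The run of 36 that contains ZNF91 had -0.67, -0.88, -0.64 and -0.28 (25 and 18 members). The run from ZNF653 to ZNF791, at chr19:11483427-12640098, had -1.14, -1.74, -1.26 and -1.24 (10 and 11 members).

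The effect of STM2457 before actinomycin D was small for the members. By edgeR 0 were called in either Kelly set or the 3-day NGP set, and 3 in the 6-day NGP set, where 1.68, 3.97, 3.7 and 7.99% of all genes were called in either direction. DESeq2 called 2, 1, 0 and 4, limma-voom 0, 0, 0 and 3, and 5, 6, 7 and 8 members had an unadjusted p under 0.05. The medians leaned above 0, at 0.088, 0.069, 0.12 and 0.055, with 137, 137, 126 and 110 members above 0 and 96, 97, 75 and 91 below, while the medians of all genes were 0, 0, 0 and 0.02. With ERCC scaling all genes shifted by 0.38, -0.21, 0.098 and -0.017, and the members' calls became 16 higher, 4 lower, 1 higher, and 1 higher with 1 lower. Relative to all genes the members' medians were then 0.11, 0.035, 0.12 and 0.032.

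ZNF253, a KRAB zinc finger gene with 11 finger matches (chr19:19865882-19894674), rose in NGP at 6 days, with the larger change of the 2 members called higher there. It read 42.5 and 39.1 CPM in DMSO and 74.9 and 65.6 in STM2457. At 3 days it read 41.0 and 43.3 in DMSO against 47.8 and 58.9. The pairs did not overlap at either time, and the differences were 0.78 ± 0.17 (adjusted p = 0.000466 from edgeR) at 6 days and 0.34 ± 0.17 (0.371) at 3 days. In Kelly ZNF253 differed by 0.20 at 3 days and -0.34 at 6 days, neither of them called.

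ZNF460, a KRAB zinc finger gene with 11 finger matches (chr19:57280051-57294069), fell. Its levels in NGP at 6 days were 38.2 and 44.6 CPM in DMSO and 23.3 and 22.8 in STM2457, without overlap. The difference was -0.84 ± 0.21 (adjusted p = 0.00295 from edgeR), and the call was lost without DMSO replicate 2 (-0.73). It differed by 0.11 and -0.21 in Kelly and by 0.12 in NGP at 3 days, none of them called.

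ZNF431 (chr19:21142024-21196053), a KRAB zinc finger gene with 12 finger matches named after its values were seen, was the third. It read 40.9 and 34.6 CPM in DMSO and 53.1 and 56.6 in STM2457 in NGP at 6 days (0.54 ± 0.18, adjusted p = 0.0419 from edgeR). This call was lost without any 1 of the 4 libraries (0.66 without DMSO replicate 1, 0.42 without DMSO replicate 2, 0.58 without STM2457 replicate 1, 0.49 without STM2457 replicate 2), and with ERCC scaling (0.49) or no filter (0.54). The other sets gave no overlap either: 36.4 and 40.1 against 57.9 and 64.5 in Kelly at 3 days, 44.3 and 37.7 against 47.5 and 53.9 in Kelly at 6 days, and 38.9 and 37.0 against 46.6 and 49.7 in NGP at 3 days. Those differences were 0.68 ± 0.20, 0.30 ± 0.20 and 0.34 ± 0.18, and none was called (adjusted p = 0.0556, 0.644 and 0.408 from edgeR).

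The decay difference compares the loss in STM2457 with that in DMSO. A value above 0 means a smaller relative loss in STM2457. By edgeR 0 members were called in either Kelly set or the 3-day NGP set, and 1 in the 6-day NGP set, where 0.221, 0.424, 0.703 and 2.54% of all genes were called. DESeq2 called 0, 0, 1 and 3 and limma-voom 0, 0, 0 and 1, and 15, 15, 15 and 9 members had an unadjusted p under 0.05. The members' medians were 0.085, 0.033, 0.060 and 0.038. With ERCC scaling all genes shifted by -0.37, 0.70, 0.14 and 0.41, and the calls were 7 lower, 31 higher, 0 and 9 higher. Relative to all genes the members' medians were 0.062, 0.013, 0.059 and 0.063 with that scaling and 0.064, 0.026, 0.060 and 0.057 with TMM.

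ZNF45, a KRAB zinc finger gene with 15 finger matches (chr19:43912624-43935282), was the member called. In NGP at 6 days its DMSO levels were 24.3 and 24.2 CPM at 0 h, 8.46 and 8.60 at 3 h and 3.94 and 6.67 at 6 h. In STM2457 they were 25.1 and 19.2, 15.9 and 17.1, and 14.3 and 20. The treatments overlapped at 0 h and stood apart at 3 and 6 h. The change over 6 h was -2.21 ± 0.29 in DMSO and -0.38 ± 0.27 in STM2457, and the decay difference 1.83 ± 0.39 (adjusted p = 0.00139 from edgeR). It was called under all 9 other settings (1.81 to 2.26) and without each of the 8 libraries in turn (1.49 to 2.24).

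The other sets gave ZNF45 values of the same sign that were not called. In NGP at 3 days it read 24.1 and 28.1, 14.8 and 12.2, and 9.08 and 8.82 CPM in DMSO against 24.5 and 26.8, 24.2 and 21.4, and 14.5 and 16.2 in STM2457. Again the treatments stood apart at 3 and 6 h (decay difference 0.80 ± 0.38). In Kelly at 6 days the levels at 6 h were 12.8 and 5.33 in DMSO against 16.3 and 18.5 (0.99 ± 0.42), and at 3 days 18.1 and 11.5 against 14.1 and 21.9, which overlap (0.35 ± 0.41, and -0.055 with ERCC scaling). In Kelly at 6 days ERCC scaling gave 1.70, which was called. The adjusted p were 0.509, 0.465 and 0.939 from edgeR.

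**Figure D5:**
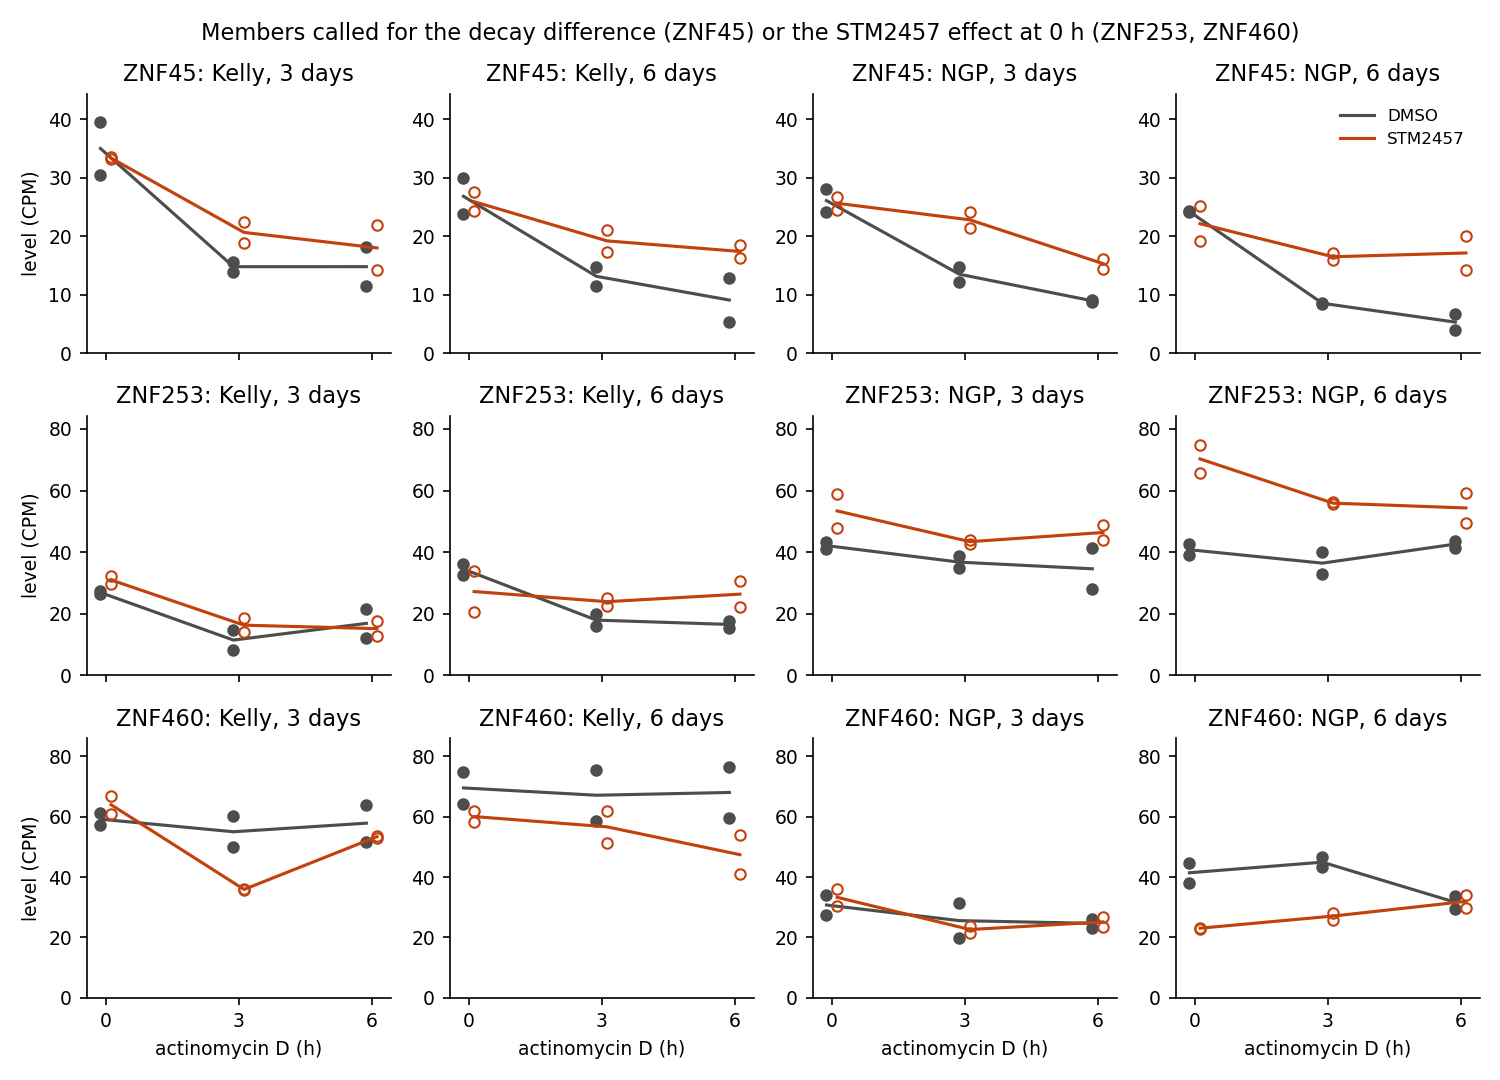
Level in CPM (y axis) of ZNF45, ZNF253 and ZNF460 against hours of actinomycin D (x axis), with 1 point per library (DMSO filled, STM2457 open) and lines through the means. ZNF45 keeps 14.3 to 20 CPM in STM2457 and 3.94 to 6.67 in DMSO at 6 h in NGP at 6 days; ZNF253 starts higher and ZNF460 lower in STM2457 in that set.

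Differences between durations were few. In Kelly 0 members were called by edgeR for 6 minus 3 days of the STM2457 effect, of the DMSO loss or of the decay difference, where 0.788, 0.638 and 0.197% of all genes were called and 5, 17 and 11 members had an unadjusted p under 0.05. In NGP the counts were 0, 1 and 0, against 2.8, 2.54 and 1.04% of all genes and 4, 19 and 14 members by unadjusted p. The 1 was ZNF507, with 10 finger matches and no KRAB match (chr19:32345594-32387667). Its DMSO levels in NGP were 78.7 and 85.1 CPM at 0 h and 75.8 and 74.8 at 6 h at 3 days, but 83.4 and 85.0 at 0 h and 44.2 and 54.0 at 6 h at 6 days. The 6 h libraries at 6 days were below all others. The difference was -0.658 ± 0.18 (adjusted p = 0.0280 from edgeR). It lost its call without 7 of the 8 libraries, each in turn, with values of -0.52 to -0.72; the exception was DMSO 6 h replicate 2 at 6 days. It also lost it with RLE size factors (-0.61), library size only (-0.60) or no filter (-0.60).

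Between the lines, NGP minus Kelly, 0 members were called by edgeR for the STM2457 effect at 3 days and 2 at 6 days, where 0.161 and 1.75% of all genes were called, with 1 and 9 members by unadjusted p. For the decay difference 0 were called at both times, where 0.00577 and 1% of all genes were, with 12 and 12 members by unadjusted p. No other tool was run for the counts of 0 in these differences. For the DMSO loss 3 were called at 3 days and 8 at 6 days, where 1.59 and 4.25% of all genes were, with 25 and 26 members by unadjusted p. Among 235 members these calls were at neither time a larger share than among all genes. Of these calls, 3 at 3 days and 7 at 6 days had the smaller relative loss in NGP. The direction of the calls over all genes is not given here, so no lean of the members is read from this.

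ZNF317 was called at both times, at 2.04 ± 0.45 and 1.61 ± 0.44 (adjusted p = 0.00456 and 0.0195 from edgeR), on the levels given above. The call was lost with limma-voom (2.16 and 1.69), at 3 days without Kelly 6 h replicate 1 (1.54), and at 6 days likewise without Kelly 6 h replicate 1 (1.17). ZNF121, with 9 finger matches (chr19:9560353-9584533), had the smallest adjusted p at 6 days. It went from 185 and 195 CPM to 131 and 115 over 6 h in Kelly, and from 168 and 165 to 185 and 172 in NGP. Relative to the typical gene it ended below its 0 h pair in Kelly and above it in NGP. The difference was 0.76 ± 0.15 (adjusted p = 0.000572 from edgeR) and was called under every other setting and without each library, at 0.67 to 0.95.

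Also called for the DMSO loss at 6 days were ZNF562 (1.14), ZNF850 (1.81), ZNF737 (1.40), ZNF724 (1.83), ZNF253 (1.15) and, with the opposite sign, ZNF414 (-3.24), all but ZNF253 named after their values were seen. ZNF850 went from 33.9 and 27.1 CPM at 0 h to 6.99 and 3.71 at 6 h in Kelly and from 35.6 and 32.2 to 17.7 and 23.3 in NGP. ZNF562 went from 91.1 and 85.0 to 30.7 and 28.3 in Kelly and from 82.5 and 66.0 to 55.2 and 52.2 in NGP. For both the 6 h pair lay below the 0 h pair in each line. ZNF562, ZNF850, ZNF737 and ZNF724 were not re-tested under other settings or with libraries left out. ZNF253 lost its call without DMSO 0 h replicate 1 or 6 h replicate 2 of Kelly or 0 h replicate 2 of NGP (1.08, 1.07 and 1.09). ZNF414, with 3 finger matches, read 3.90 and 14.4 CPM in its pair of Kelly 6 h libraries, and its call was lost without the second of these (-2.01) or without NGP 6 h replicate 1 (-2.70). ZNF724 shares 44.8% of its exon bases with AC092329.3.

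The remaining calls were those of ZNF765 (2.85) and ZNF264 (8.07) for the DMSO loss at 3 days and of ZNF83 (6.31) and ZNF253 (1.15) for the STM2457 effect at 6 days. ZNF264 and ZNF83 are at or near 0 in NGP, so their values are no measure of size. Without NGP DMSO 6 h replicate 1, which held 27 fragments of ZNF264, its value was 1.28, and without NGP STM2457 0 h replicate 1, which held 16 fragments of ZNF83, its value was 0.32, and neither was called. Leaving out NGP DMSO 0 h replicate 1 or 2 also ended the call of ZNF83 (about 6.3 in each). ZNF765 (chr19:53389793-53430413), named after its values were seen, read 7.87 and 4.03 CPM at 6 h in NGP against 4.60 and 5.25 at 0 h, and 3.89 and 4.78 against 22 and 29.1 in Kelly. Its call was lost without NGP 6 h replicate 1 (2.27). ZNF253 lost the call of its STM2457 effect without 5 of 8 libraries in turn, at 0.83 without Kelly STM2457 replicate 2, 1.07 without Kelly DMSO replicate 1, 1.21 and 1.08 without NGP DMSO replicate 1 and 2, and 1.04 without NGP STM2457 replicate 1. With limma-voom, 0 members were called for the DMSO loss at 3 days.

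The machinery through which KRAB zinc fingers act was described from a list of 20 corepressor and heterochromatin genes, comparing STM2457 with DMSO at 0 h by edgeR. In Kelly 1 was higher and 1 lower in STM2457 at 3 days, where 0.579% of all genes were higher and 1.10% lower, and 5 were higher and 0 lower at 6 days (2.70% and 1.26%). In NGP 4 were higher and 3 lower at 3 days (1.25% and 2.45%), and 7 higher and 0 lower at 6 days (4.45% and 3.55%). CBX5, the heterochromatin protein HP1 alpha, was higher in all 4, by 0.24, 0.21, 0.18 and 0.25. CHD3, a remodeller of the NuRD complex, was higher in 3, by 0.37 in 6-day Kelly and by 0.33 and 0.47 in NGP.

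MORC2, an ATPase that works with the HUSH silencing complex, read 63.6 and 66.6 CPM in DMSO and 129 and 132 in STM2457 in NGP at 6 days. At 3 days it had read 125 and 147 in DMSO and 157 and 159 in STM2457, so both treatments were lower at 6 days, DMSO by more. In Kelly it read 75.3 and 65.9 in DMSO and 99.1 and 108 in STM2457 at 6 days, after 118 and 129 and 123 and 121 at 3 days. The differences between treatments at 6 days were 0.55 in Kelly and 1.01 in NGP. UHRF1, which brings the maintenance DNA methyltransferase DNMT1 to replicated DNA, was also higher in STM2457 at 6 days, by 0.52 and 0.51, and DNMT1 by 0.50 and 0.18. In Kelly DMSO cells UHRF1 went from 219 and 231 CPM at 3 days to 132 and 132 at 6 days, and DNMT1 from 423 and 451 to 316 and 295. TRIM28 was lower in STM2457 in NGP at 3 days, by -0.36, as were UHRF1 (-0.29) and CBX1 (-0.21).

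After 6 h of actinomycin D in DMSO, 8, 8, 9 and 11 of the 20 were higher than the typical gene and 4, 4, 3 and 3 lower, with medians of 0.12, 0.083, 0.21 and 0.23. Of all genes 14.4, 13.2, 19 and 18% were higher and 15.6, 13.3, 18.4 and 18.7% lower. These values are relative to the typical gene, and the list was not recomputed with ERCC scaling, whose shifts of all genes are given above. SUV39H1 was among the lower, at -1.97, -3.23, -1.80 and -1.57.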

How the data were processed

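The 48 libraries were TRIzol RNA, selected with poly(A) beads and made into cDNA libraries with a SMART kit, per the labels' protocols. The authors deposited raw fragment counts per gene, made with featureCounts 1.5.3 over exons grouped by gene name on the GENCODE 33 protein-coding annotation with ERCC spike-ins, per the file headers. No strand or multimapping option is named there. The submitters' processing notes name GRCh38, FastQC 0.11.5, Trimmomatic 0.36 and HISAT2 2.1.0.

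Counts were tested with edgeR 4.0.16 (R 4.3.3), a quasi-likelihood test with TMM scaling, within each line over its 12 groups, and over both lines for differences between them. Genes were kept by filterByExpr (minimum count 10, total 15), p-values were adjusted by Benjamini-Hochberg over all genes kept, with a threshold of 0.05, and the SE is the log2 change over the root of F. Alternatives were limma-voom (limma 3.58.1), DESeq2 1.42.0, other scalings, no filter, a replicate block, a length trend and libraries left out. The fit of each line was also run on simulated counts with known changes in STM2457 at 0 h and 3 days. Their spread was set below that of these data, and the other contrasts were not simulated. Exon sharing came from the exon coordinates in the count files, and finger, KRAB-like, GGACT and shared 50-base matches from the canonical transcripts and translations of GENCODE 44, another release than the counts use. Named genes were the 6 members with the largest mean relative loss and the 4 with the smallest, among those with at least 5 CPM in both lines, members called under STM2457 by size, every called decay difference, for each contrast of durations or lines the call with the lowest adjusted p, and ZNF91, ZNF93 and ZNF274 by role. The members and lists were chosen with earlier results of these data known.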

Additional observations from a re-analysis of the deposited data

Results flagged for a closer look

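These results are listed because a test of the difference itself, between durations or between lines, passed the threshold of 0.05 in edgeR. Between 6 and 3 days in NGP, the DMSO loss of ZNF507 differed by -0.658. Between NGP and Kelly at 3 days, the DMSO loss differed by 2.04 for ZNF317, 2.85 for ZNF765 and 8.07 for ZNF264, the last resting on 27 fragments of 1 NGP library. At 6 days it differed by 0.759 for ZNF121, 1.15 for ZNF253, 1.61 for ZNF317, -3.24 for ZNF414, 1.14 for ZNF562, 1.83 for ZNF724, 1.40 for ZNF737 and 1.81 for ZNF850. The STM2457 effect at 0 h and 6 days differed between the lines by 1.15 for ZNF253 and by 6.31 for ZNF83, which rests on 16 fragments of 1 NGP library. With 2 libraries in each group, no library was tested as standing apart within its group.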

How the results depend on the processing

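Of 43 called values of named members, 26 stayed past the threshold in every alternative run. With ERCC scaling the members called for the DMSO loss were 194 in 6-day Kelly and 151 and 157 in NGP, and those for the STM2457 effect 16 and 4 in Kelly and 1 in NGP at 3 days. The decay difference then had 7 and 31 in Kelly and 9 in NGP at 6 days, the duration difference of the NGP DMSO loss 3, and the line difference at 3 days 7. DESeq2 gave 2 and 1 for the STM2457 effect in Kelly, 1 and 3 for the decay difference in NGP and 4 for the duration difference. That duration count was 0 with RLE factors, library size only or no filter. The line count at 3 days was 0 with limma-voom and 5 with no filter. The STM2457 count in Kelly at 3 days was 1 with library size only, no filter or the replicate block. Replicate numbers were shared by name only: deviations correlated at -0.0355 to 0.0339 in Kelly and -0.0253 to 0.0729 in NGP over 66 pairs of groups each, and the replicate block moved no other count by over 1.5 times.

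Signs turned with ERCC scaling for ZNF358 (-0.18, -0.55 and -0.54 in Kelly at 3 and 6 days and NGP at 3 days), ZNF428 (-0.93, -0.24 and -0.37 in Kelly at 6 days and NGP at 3 and 6 days), ZNF573 (-1.10, -0.22 and -0.96, same sets), ZNF738 (-0.54, -0.28 and -0.42, same sets) and the decay difference of ZNF45 in Kelly at 3 days (-0.055). With library size only ZNF573 in NGP at 6 days was -0.11. The cause was not tested. Without 1 library at a time, the DMSO loss counts were 80 to 93, 64 to 76, 63 to 71 and 56 to 68, the STM2457 counts 0, 0, 0 and 2 to 3, and the decay difference counts 0 to 1, 0 to 2, 0 to 2 and 1. Values that crossed 0 were those of ZNF358 (-0.083 to 0.52 in Kelly at 3 days, -0.25 to 0.082 in NGP at 6 days), ZNF428 (-0.11 to 0.68 in Kelly at 6 days) and ZNF573 (-0.16 to 0.45 in Kelly and -0.24 to 0.35 in NGP, both at 6 days). The duration count was 0 to 2, the line counts for the loss 3 to 8 and 6 to 9, and that for the STM2457 effect at 6 days 0 to 2. Fits of the same duration only were not run for the line differences.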
